A study of Homo sapiens with 24 samples.

Results

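The genes described here are 9 genes that encode replacement and variant histones: H2AFX, H2AFZ, H2AFV, H2AFJ, H2AFY, H3F3A, H3F3B, H1F0 and H1FX. They were taken by symbol from the 48162 genes of the deposited count table, each matched exactly 1 row, and all 9 passed the filter on low counts. RNA was sequenced from PPC1, a human prostate cancer cell line, in 4 conditions with 6 libraries each. Parental cells (UT) were neither irradiated nor filtered, and polyploid giant cancer cells (PGCC) were the irradiated cells of the same line (8 Gy on day 2) that a filter of 20 micron held back at the harvest on day 5. Both populations were also harvested after 5 h with 5 μM LCL521, a pro-drug that inhibits the lysosomal enzyme acid ceramidase (UT_LCL and PGCC_LCL). Irradiation and filtration cannot be told apart in these groups. The RNA came from whole populations, so that fewer cells with a transcript and less of it per cell cannot be told apart either. In the PPC1 libraries the prostate markers KLK3, KLK2 and FOLH1 had no count in any condition, while HOXB13 and the epithelial keratins KRT8 and KRT18 were expressed.

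Most histone protein is made in S phase from clustered genes whose mRNAs end in a stem-loop and carry no poly(A) tail. The genes described here lie outside those clusters, are mostly transcribed throughout the cell cycle into polyadenylated mRNA, and supply histones that can be placed into chromatin without DNA replication. H2A.Z, encoded by H2AFZ and H2AFV, marks nucleosomes next to transcription start sites. H3.3, encoded by H3F3A and H3F3B as the same protein, replaces H3 at transcribed genes, enhancers and telomeres. H2A.X is phosphorylated around DNA double-strand breaks, H2A.J accumulates in senescent cells with persistent DNA damage, and macroH2A1, encoded by H2AFY, carries a large globular domain and is found in silent chromatin. H1.0 (H1F0) and H1.10 (H1FX) are linker histones, and H1.0 is a mark of differentiated and non-dividing cells.

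The H2AFX gene differs from the other members in its mRNA. Its transcripts can end either at a histone stem-loop or at a poly(A) signal, and the stem-loop is shown because the libraries were made with poly(A) selection. A search of the transcripts of GENCODE v29 (GRCh38) found the stem-loop pattern in 1 of the 9 genes. In H2AFX it lay in the 3′ UTR, starting 49 bases after the stop codon, at chr11:119094898-119094913 on the minus strand. The stem and loop are in capitals.
H2AFX stem-loop: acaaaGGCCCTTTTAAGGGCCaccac

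Promoter windows from RefSeq (GRCh38.p14, 250 bases before to 50 bases after the start) were given for 8 of the 9 genes, and H1F0 was not matched. The promoters of the 3 genes that were higher in PGCC and of the pair with the largest falls are shown from 200 bases before to 30 bases after the start, 5′ to 3′ on the gene's strand. Capitals mark 3 motifs on either strand. They are the CCAAT box, the TATAAA box and the CHR element (spelled TTTGAA, with TTCGAA as a second form), which is known from cell cycle genes. H2AFX lies at chr11:119095436-119095665 (minus strand), H2AFZ at chr4:99950246-99950475 (minus strand), H2AFV at chr7:44848058-44848287 (minus strand), H3F3B at chr17:75779750-75779979 (minus strand) and H1FX at chr3:129316257-129316486 (minus strand).
H2AFX: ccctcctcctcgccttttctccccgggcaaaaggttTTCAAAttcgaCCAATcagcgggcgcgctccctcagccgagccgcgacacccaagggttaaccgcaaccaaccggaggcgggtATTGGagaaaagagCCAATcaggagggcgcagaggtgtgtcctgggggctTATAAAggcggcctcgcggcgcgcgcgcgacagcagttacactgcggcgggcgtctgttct
H2AFZ: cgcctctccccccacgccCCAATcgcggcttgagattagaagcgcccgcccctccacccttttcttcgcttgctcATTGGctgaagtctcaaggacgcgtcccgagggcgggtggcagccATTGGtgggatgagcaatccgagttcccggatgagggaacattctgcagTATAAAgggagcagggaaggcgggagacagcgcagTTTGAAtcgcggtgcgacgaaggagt
H2AFV: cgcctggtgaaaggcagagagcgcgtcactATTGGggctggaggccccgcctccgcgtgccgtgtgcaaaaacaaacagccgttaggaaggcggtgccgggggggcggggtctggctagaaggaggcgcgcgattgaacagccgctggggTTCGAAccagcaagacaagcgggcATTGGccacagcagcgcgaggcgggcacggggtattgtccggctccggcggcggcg
H3F3B: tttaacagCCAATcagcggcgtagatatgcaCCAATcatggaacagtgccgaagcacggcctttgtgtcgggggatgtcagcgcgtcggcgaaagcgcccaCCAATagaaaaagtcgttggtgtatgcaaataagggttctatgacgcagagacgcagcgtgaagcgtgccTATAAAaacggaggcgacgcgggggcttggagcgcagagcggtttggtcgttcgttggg
H1FX: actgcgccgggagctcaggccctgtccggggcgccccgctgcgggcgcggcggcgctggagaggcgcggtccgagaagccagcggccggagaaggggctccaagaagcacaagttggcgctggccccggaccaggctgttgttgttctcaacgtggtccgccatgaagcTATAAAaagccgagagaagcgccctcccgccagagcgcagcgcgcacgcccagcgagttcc

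The CCAAT box was the commonest of the motifs searched on both strands of these windows. The full window of H2AFX held 4 CCAAT boxes, that of H2AFZ 3, that of H2AFV 4, that of H2AFJ 3 and that of H3F3B 4, and the H1FX window held none. H3F3A held 1 in each of 3 of its 4 windows, and H2AFY held 2 in 1 of its 2 windows. Of all 35116 RefSeq promoter windows of the same length, 34.6% held at least 1 CCAAT box and 3.26% at least 3. The CHR element was found in H2AFX, H2AFZ and H2AFV and in no window of the other 5 genes, against 16.4% of all windows. It lay 164 bases before the start in H2AFX, 50 before it in H2AFV and at base 5 after it in H2AFZ. Its part in the changes of these genes was not tested. TATAAA lay 31 bases before the start in H2AFX, H2AFZ and H1FX and 29 bases before it in H3F3B. Of all windows, 11.5% held the motif at any position, and the share with it at these positions was not counted. The E2F core (GCGGGAA, with GCGCGAA as a second form) was found in 1 of the 4 windows of H3F3A and in no other member, against 8.54% of all windows. The GC box (GGGCGG) was found in 5 of the 8 genes and in 15786 of all windows. CCAAT boxes stood in genes that were higher, in genes that were lower and in genes that did not pass, and a match is only a match of letters.

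Total counts lay between 14835246 and 19906601 per library. The lowest count of any member in any library was 262 (H1FX in PGCC, replicate 6), for which the exact Poisson interval is 231 to 296 at the 95% level. Intervals of this kind cover counting error only. The experiment was done 6 times, libraries that share a replicate number are treated as 1 experiment, and the libraries of replicates 4 and 5 stood apart in all 4 conditions. On the second principal component, which held 16.5% of the variance, those 8 libraries lay between -51.2 and -13.3 and the others between 4.11 and 30.5. For most members, values without replicates 4 and 5, or the differences in them apart from the others, are therefore also given below.

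In PGCC against parental cells, 3 of the 9 genes rose, 3 fell and 3 did not pass the test. H2AFZ, H2AFV and H2AFX were higher in PGCC, H3F3B, H3F3A and H1FX were lower, and H2AFJ, H2AFY and H1F0 did not pass. The share of members called is read against all 13812 genes tested, of which 47.4% passed the same threshold, 23.1% higher and 24.3% lower (edgeR's quasi-likelihood test, Benjamini-Hochberg adjusted p under 0.05). The same 3 genes rose and the same 3 fell between UT_LCL and PGCC_LCL, which share no library with the first comparison but come from the same 6 experiments, and there 48.9% of all genes passed, 25.0% higher and 23.9% lower. A fit that held the replicate number as a block called the same 6 genes in both comparisons, beside 56.2% of all genes (27.9% higher, 28.3% lower) without LCL521 and 56.3% (29.5% higher, 26.8% lower) with it. The ranges of the 6 and 6 libraries did not overlap for 4 members in PGCC against UT (H2AFZ, H2AFV, H3F3A and H3F3B), while 26.5% of all genes had ranges that did not overlap. The same was true of 3 members with LCL521 (H2AFZ, H2AFV and H3F3B), against 27.8% of all genes.

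**Figure D1:**
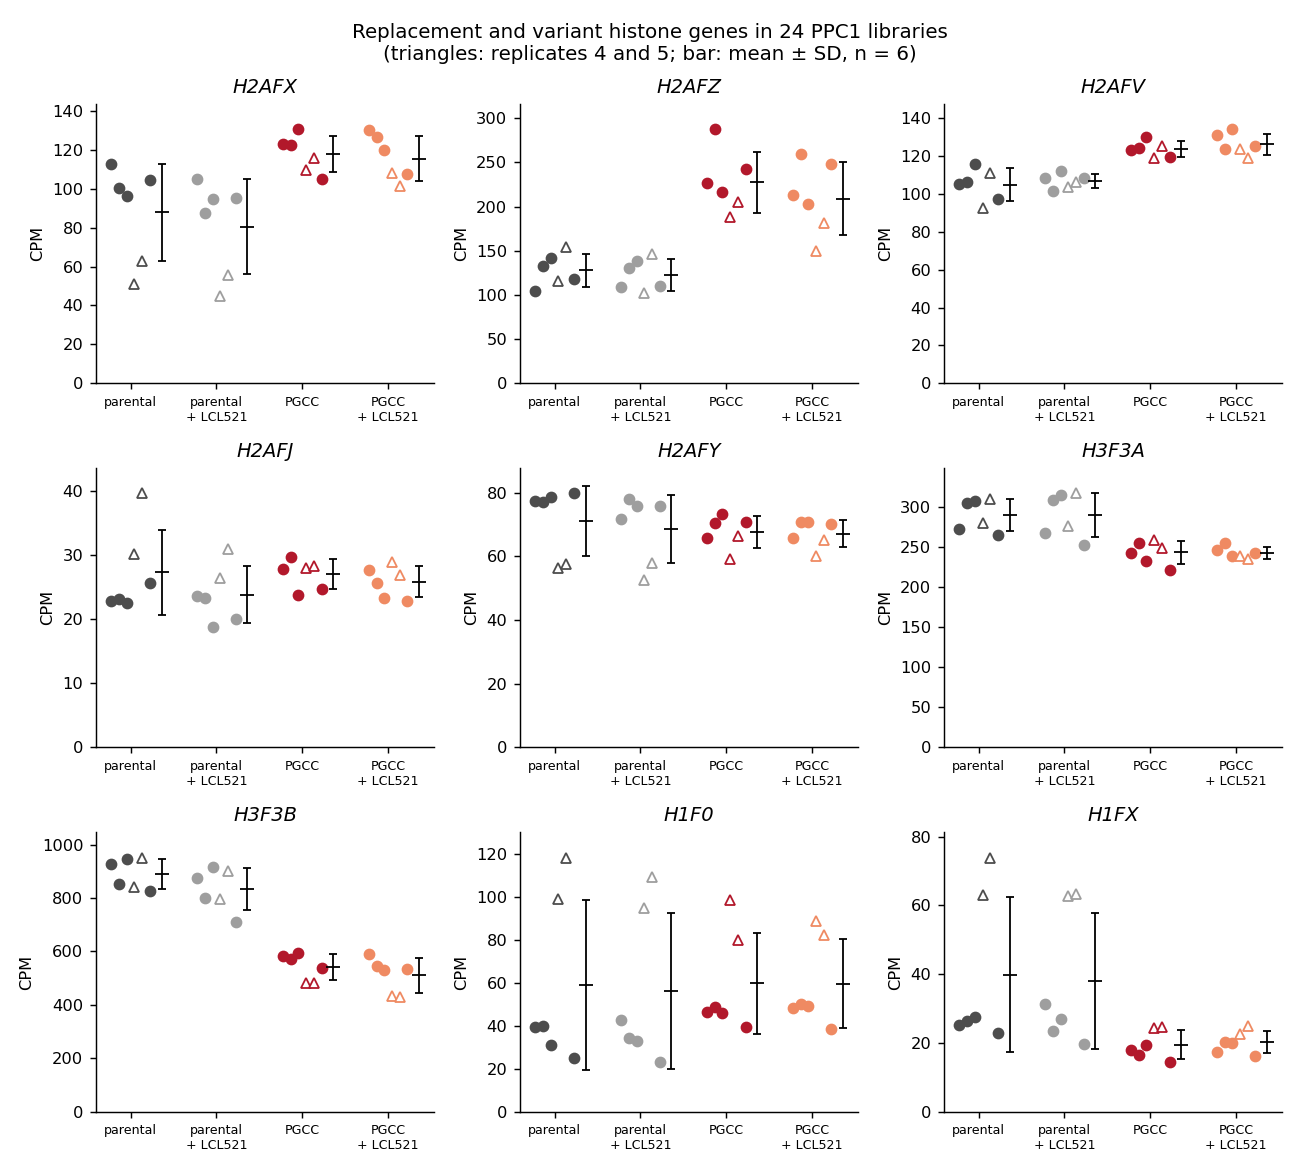
Level in CPM (vertical axis, from 0) of the 9 genes in the 24 libraries, by condition, with the mean and SD of 6 libraries beside the points and replicates 4 and 5 as open triangles. H2AFZ lay between 104 and 154 CPM in parental cells and between 189 and 288 in PGCC, and H1F0 and H1FX stood highest in the triangles.

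H2AFZ (ENSG00000164032, chromosome 4, 100869243 to 100871545, minus strand), the main gene for H2A.Z, had the largest rise of the members. In parental cells its level had a lowest value of 104, a median of 125 and a highest value of 154 CPM (read counts divided by a library size scaled by TMM). In PGCC the lowest value was 189, the median 222 and the highest 288 CPM. Every PGCC library lay above every parental library, and the lowest PGCC library was replicate 4. The fold was 1.79 (log2 fold change 0.84 ± 0.12 SE, adjusted p = 6.0e-05, edgeR). With LCL521 present the fold was 1.73 (0.79 ± 0.14 SE, adjusted p = 2.6e-04, edgeR). H2AFZ was higher in 6 of 6 experiments in both comparisons, by a mean log2 difference of 0.56 in replicates 4 and 5 and of 0.97 in the other replicates without LCL521. Without replicates 4 and 5 the log2 fold change was 0.99.

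H2AFV (ENSG00000105968, chromosome 7, 44866390 to 44887682, minus strand) encodes a second H2A.Z protein that differs from the first at few residues. Parental libraries had 92.6 to 116 CPM with a median of 106, and PGCC libraries 119 to 130 CPM with a median of 124. The groups did not overlap, but the gap between them was small. The fold was 1.19 (log2 fold change 0.25 ± 0.07 SE, adjusted p = 0.0104, edgeR), and 1.20 with LCL521 (0.27 ± 0.06 SE, adjusted p = 0.0026, edgeR). H2AFV was higher in 6 of 6 experiments in both. Both calls were lost without the low-count filter (adjusted p = 0.0747 and 0.0631, edgeR). Together the reads of H2AFZ and H2AFV came to 233 ± 25.2 CPM in parental cells and 351 ± 35.1 CPM in PGCC (SD, n = 6).

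Inside each library the H2A.Z pair shifted towards H2AFZ. Of the reads on both genes, H2AFV took 45.2% ± 2.72 in parental cells and 35.5% ± 3.31 in PGCC (SD, n = 6). The mean log2 ratio of H2AFV to H2AFZ counts per length fell from -1.29 in parental cells to -1.88 in PGCC, with no overlap between the groups (exact permutation test over libraries, two-sided p = 0.00216, the smallest it can give, and adjusted p = 0.00519 over 12 ratio comparisons). With LCL521 in both populations it fell from -1.20 to -1.72 (exact permutation p = 0.00866, adjusted p = 0.0173), and here the ranges overlapped because PGCC_LCL replicate 4, at -1.30, lay above 3 of the parental libraries. This second call was lost without replicate 1 (difference -0.48) and without replicate 6 (-0.43), both with an adjusted p of 0.0635 in the exact permutation test. A ratio inside a library does not depend on how libraries were scaled. The coding sequences of the pair share 311 bases (80.4%) and differ at 76 in GENCODE v29, and the longest identical run is 23 bases.

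H3F3B (ENSG00000132475, chromosome 17, 73772515 to 73781974, minus strand), 1 of the genes for H3.3, fell in PGCC. Parental libraries had 826 to 951 CPM with a median of 890, and PGCC libraries had 481 to 593 CPM with a median of 554. No PGCC library came near the parental range, and the pair of lowest PGCC libraries were replicates 4 and 5. H3F3B fell by 0.71 on the log2 scale (SE 0.08, adjusted p = 5.5e-06, edgeR), 1.64-fold lower. With LCL521 it fell by 0.68 (SE 0.09, adjusted p = 4.5e-05, edgeR), and it was lower in 6 of 6 experiments in both comparisons. The mean log2 difference was -0.89 in replicates 4 and 5 and -0.64 in the other experiments without LCL521. With LCL521 these means were -0.97 and -0.58.

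H3F3A (ENSG00000163041, chromosome 1, 226249552 to 226259702, plus strand) encodes the same H3.3 protein, and its fall was smaller. Its libraries had 265 to 310 CPM (median 293) in parental cells and 222 to 258 CPM (median 246) in PGCC. The groups did not overlap, and H3F3A fell by 0.25 on the log2 scale (SE 0.07, adjusted p = 0.0069, edgeR). With LCL521 it fell by 0.23 (SE 0.07, adjusted p = 0.0176, edgeR), with overlapping ranges. This second call was lost without replicates 4 and 5 (log2 fold change -0.19, adjusted p = 0.0877, edgeR), without replicate 3 (-0.20, adjusted p = 0.0709) and without replicate 5 (-0.19, adjusted p = 0.0738). In PGCC against UT the call was lost when library totals alone set the scale (-0.15, adjusted p = 0.0687), a scaling that moved the median of all genes from -0.03 to 0.07.

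The H3.3 pair therefore changed unequally. H3F3B took 75.4% ± 1.16 of the reads on both genes in parental cells and 68.9% ± 2.73 in PGCC (SD, n = 6). The mean log2 ratio of H3F3B to H3F3A per length fell from 1.04 to 0.57 in PGCC against UT and from 0.94 to 0.48 with LCL521. Neither pair of groups overlapped, and the ratio was lower in 6 of 6 experiments in each (exact permutation p = 0.00216 and adjusted p = 0.00519 in both). Summed over both genes, H3.3 transcripts came to 1181 ± 70.3 CPM in parental cells and 784 ± 46.3 CPM in PGCC (SD, n = 6). The coding sequences share 323 bases (78.6%), 77 of the 88 differences lie at the third codon position, and the longest identical run is 14 bases. Copies of H3F3A elsewhere in the genome also drew reads. The 5 genes named as H3F3A pseudogenes together held counts equal to 13.5% to 17.8% of those of H3F3A, nearly all on H3F3AP4 (545 to 788 counts per library), with a mean of 14.7% in parental cells and 15.1% in PGCC. For the pseudogenes of H3F3B and H2AFZ that share was at most 0.011% and 0.18%.

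**Figure D2:**
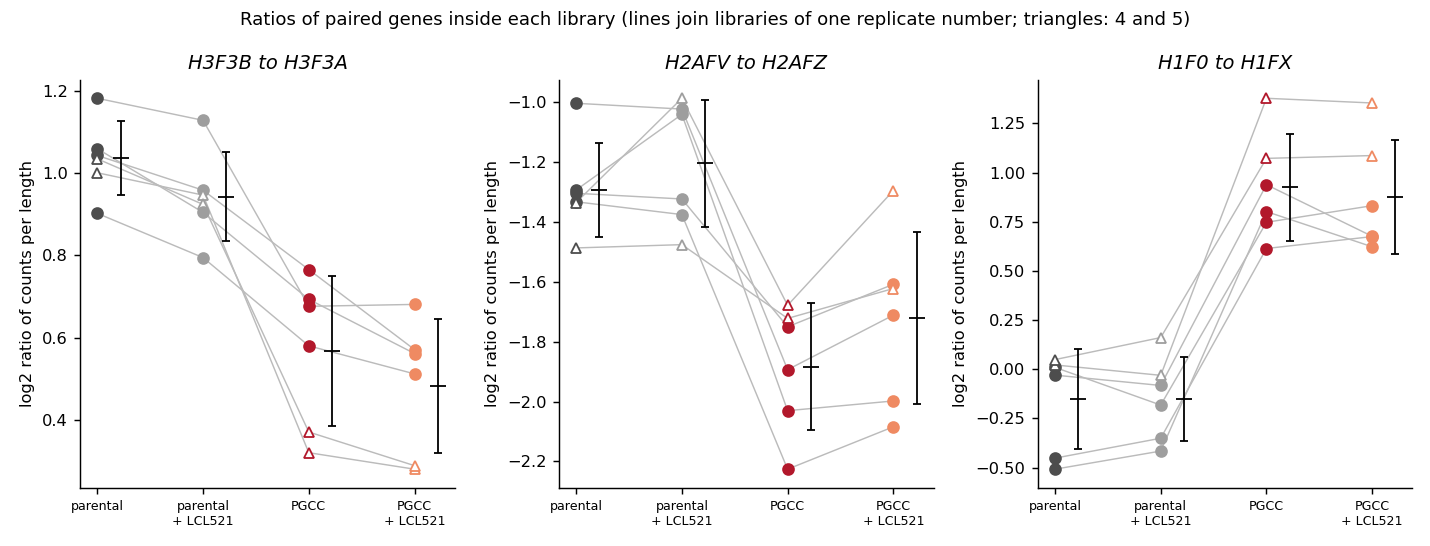
Log2 ratio of counts per length inside each library (vertical axis) for H3F3B to H3F3A, H2AFV to H2AFZ and H1F0 to H1FX in the 4 conditions, with lines that join libraries of 1 replicate number and the mean and SD (n = 6) beside the points. The first fell from a mean of 1.04 to 0.57 between parental cells and PGCC, the second from -1.29 to -1.88, and the third rose from -0.15 to 0.92.

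H2AFX (ENSG00000188486, chromosome 11, 118964564 to 118966177, minus strand) rose in PGCC with a wide spread between experiments. Parental libraries had 51.0 to 113 CPM with a median of 98.3, and PGCC libraries 105 to 131 CPM with a median of 119. The low parental values were those of replicates 4 and 5, at 51.0 and 63.0 CPM, and the other 4 parental libraries lay between 96.2 and 113 CPM, so that the groups overlapped. The fold was 1.35 (log2 fold change 0.43 ± 0.16 SE, adjusted p = 0.0444, edgeR). In replicates 4 and 5 the mean log2 difference was 0.99, and in the other experiments it was 0.22, the smallest being 0.01. The call was lost without replicate 2 (0.46, adjusted p = 0.0793), 3 (0.42, adjusted p = 0.1003), 4 (0.34, adjusted p = 0.0520) or 5 (0.36, adjusted p = 0.107), in 1 fit of all 24 libraries (adjusted p = 0.0575) and without the low-count filter (adjusted p = 0.0525), and it held without replicates 4 and 5 together (0.24, adjusted p = 0.0299). With LCL521 in both populations the fold was 1.46 (0.55 ± 0.17 SE, adjusted p = 0.0174, edgeR), and without replicates 4 and 5 the log2 fold change was 0.37 (adjusted p = 0.0023, edgeR). H2AFX was higher in 6 of 6 experiments in both comparisons. The libraries were made with poly(A) selection, so the H2AFX counts speak for transcripts with a tail, not for those that end at the stem-loop.

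H2AFJ and H2AFY did not pass the test over all 6 experiments in either comparison. H2AFJ (ENSG00000246705, chromosome 12, 14927270 to 14930936, plus strand) had 22.6 to 39.6 CPM in parental cells (median 24.4) and 23.7 to 29.6 CPM in PGCC (median 27.9). The 2 highest parental libraries were replicates 5 and 4, at 39.6 and 30.1 CPM, and the log2 fold change was -0.01 with a 95% interval from -0.31 to 0.29. In the other 4 experiments the mean log2 difference was 0.17, and without replicates 4 and 5 the log2 fold change was 0.19 (adjusted p = 0.137, edgeR). With LCL521 it was 0.14 (interval -0.12 to 0.40), and without replicates 4 and 5 it was 0.25 (adjusted p = 0.0654, edgeR), which passed with the replicate block (0.25, adjusted p = 0.0357). H2AFY (ENSG00000113648, chromosome 5, 134669590 to 134735604, minus strand) had 56.2 to 79.8 CPM in parental cells (median 77.3) and 59.2 to 73.3 CPM in PGCC (median 68.5). Its log2 fold change was -0.06 (interval -0.29 to 0.17), and its lowest parental libraries were replicates 4 and 5, while replicates 4 and 1 were the lowest in PGCC. In replicates 4 and 5 H2AFY was 0.14 higher in PGCC on the log2 scale, and in the other 4 it was 0.16 lower (a mean of -0.16), a split whose difference was not tested.

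Of the linker histone genes, H1FX fell in PGCC and H1F0 did not pass over all 6 experiments. H1FX (ENSG00000184897, chromosome 3, 129033615 to 129035120, minus strand) had 22.9 to 73.9 CPM in parental cells with a median of 27.0, and 14.6 to 24.5 CPM in PGCC with a median of 18.7. Parental replicates 4 and 5, at 63.1 and 73.9 CPM, stood far above the other 4 parental libraries, which lay between 22.9 and 27.6 CPM. H1FX fell by 1.03 on the log2 scale (SE 0.30, adjusted p = 0.0112, edgeR), 2.04-fold lower, and it was lower in 6 of 6 experiments. Without replicates 4 and 5 it fell by 0.56 (adjusted p = 8.9e-04, edgeR), so the direction and the call held at a smaller size. With LCL521 it fell by 0.89 (SE 0.27, adjusted p = 0.0155, edgeR), and by 0.43 without replicates 4 and 5 (adjusted p = 0.0183, edgeR).

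H1F0 (ENSG00000189060, chromosome 22, 38201114 to 38203442, plus strand) had 24.9 to 118 CPM in parental cells with a median of 39.7, and 39.4 to 98.3 CPM in PGCC with a median of 47.5. Replicates 4 and 5 had 99.1 and 118 CPM in parental cells and 98.3 and 79.8 CPM in PGCC, and no other library of either group passed 48.5 CPM. Over all experiments the log2 fold change was 0.02 with an interval from -0.78 to 0.83, which leaves room for changes of either sign. H1F0 was lower in PGCC in replicates 4 and 5 (mean log2 difference -0.29) and higher in the other 4 experiments (0.43). Without replicates 4 and 5 it rose by 0.43 (adjusted p = 0.0156, edgeR), and by 0.52 with LCL521 (adjusted p = 0.00966, edgeR). The replicate block gave 0.19 ± 0.15 SE over all 6 experiments, which did not pass (adjusted p = 0.302, edgeR).

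The ratio of the linker histone genes inside each library rose in PGCC. The mean log2 ratio of H1F0 to H1FX per length rose from -0.15 in parental cells to 0.92 in PGCC and from -0.15 to 0.87 with LCL521, a change of 2.11-fold and 2.03-fold. The groups did not overlap and the ratio was higher in 6 of 6 experiments in both (exact permutation p = 0.00216, adjusted p = 0.00519). H1F0 took 58.2% ± 4.35 of the reads on both genes in parental cells and 74.5% ± 3.47 in PGCC (SD, n = 6). Without replicates 4 and 5 the log2 difference was 1.02 and 0.96, but 4 against 4 libraries cannot give an exact permutation p below 0.0286, which adjusts to 0.0571 here.

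**Figure D3:**
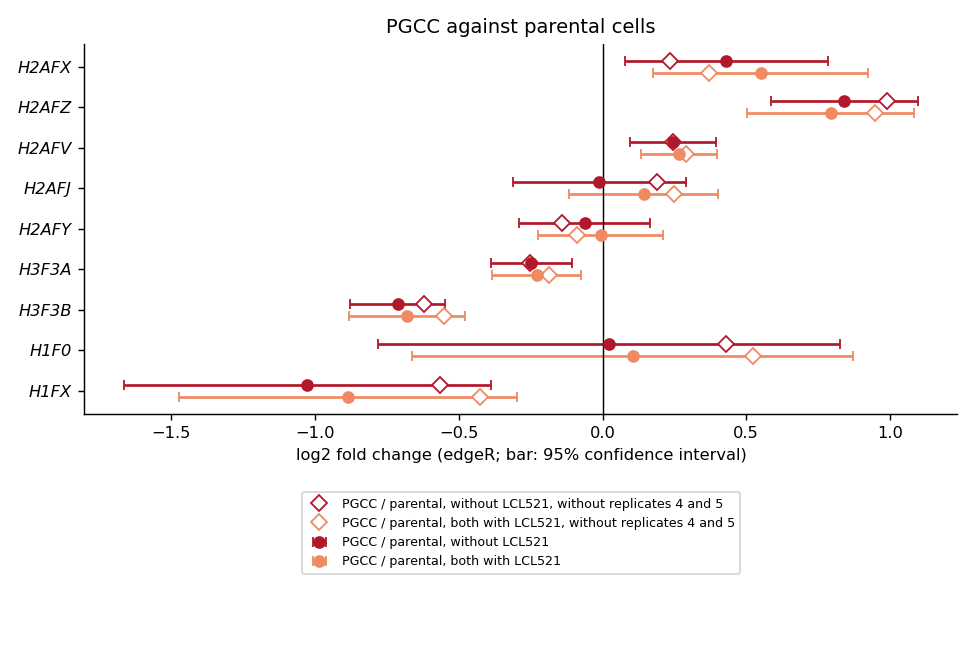
Log2 fold change of PGCC over parental cells (horizontal axis) for the 9 genes without LCL521 and with LCL521 in both populations, with 95% confidence intervals from edgeR, and the same without replicates 4 and 5 as open diamonds. H2AFZ (0.84) and H1FX (-1.03) lie farthest from 0, and the diamonds of H1F0 lie at 0.43 and 0.52 while its full estimates lie at 0.02 and 0.10.

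The order of the genes by level per length depended on which length was used and, in PGCC, on replicates 4 and 5. With the gene lengths listed in the file, H3F3B was highest in parental cells at 320 ± 20.5 CPM per kb (SD, n = 6), followed by H3F3A at 156 ± 10.7, H2AFZ at 67.9 ± 9.83 and H2AFX at 54.5 ± 15.4 CPM per kb. H2AFV, H1FX, H1F0, H2AFJ and H2AFY followed, from 27.6 down to 6.48 CPM per kb. The ranges of H2AFZ and H2AFX overlapped, as did those of each gene from H2AFV to H2AFY with the next. In PGCC the first 5 kept this order, at 194 ± 17.8 for H3F3B, 131 ± 7.44 for H3F3A, 121 ± 18.4 for H2AFZ, 73.0 ± 5.83 for H2AFX and 32.5 ± 1.07 CPM per kb for H2AFV, and H3F3A and H2AFZ no longer differed beyond their spread. Without replicates 4 and 5 these changed places, with H2AFZ at 129 and H3F3A at 128 CPM per kb. H3F3B took 46.3% ± 1.81 of the summed level of the 9 genes in parental cells and 32.1% ± 2.21 in PGCC, while the share of H2AFZ was 9.80% ± 0.94 and 20.0% ± 2.42.

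The listed lengths of H2AFZ (1880 bases), H2AFY (10982) and H3F3B (2787) are those of transcripts that GENCODE v29 does not class as coding, and that of H2AFJ (3665) matches no transcript there. Those of H1F0 (2329) and H1FX (1506) match none either, but lie close to the coding transcripts of 2344 and 1507 bases. The longest coding transcripts of H2AFZ, H2AFY, H3F3B and H2AFJ are 979, 2789, 2705 and 644 bases. With coding lengths, an alternative chosen after the data were seen, H2AFZ had 130 ± 18.9 CPM per kb in parental cells and 233 ± 35.3 in PGCC. In PGCC it then stood first, ahead of H3F3B at 199.98 ± 18.3 CPM per kb, with overlapping ranges, and H2AFJ stood in the fifth place at 41.9 ± 3.56 CPM per kb. The fall in the share of H3F3B, from 40.4% to 25.8%, and the rise in that of H2AFZ, from 15.9% to 29.96%, had the same direction with these lengths. The summed level of the 9 genes per listed length was 691 ± 48.8 CPM per kb in parental cells and 604 ± 27.8 in PGCC.

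**Figure D4:**
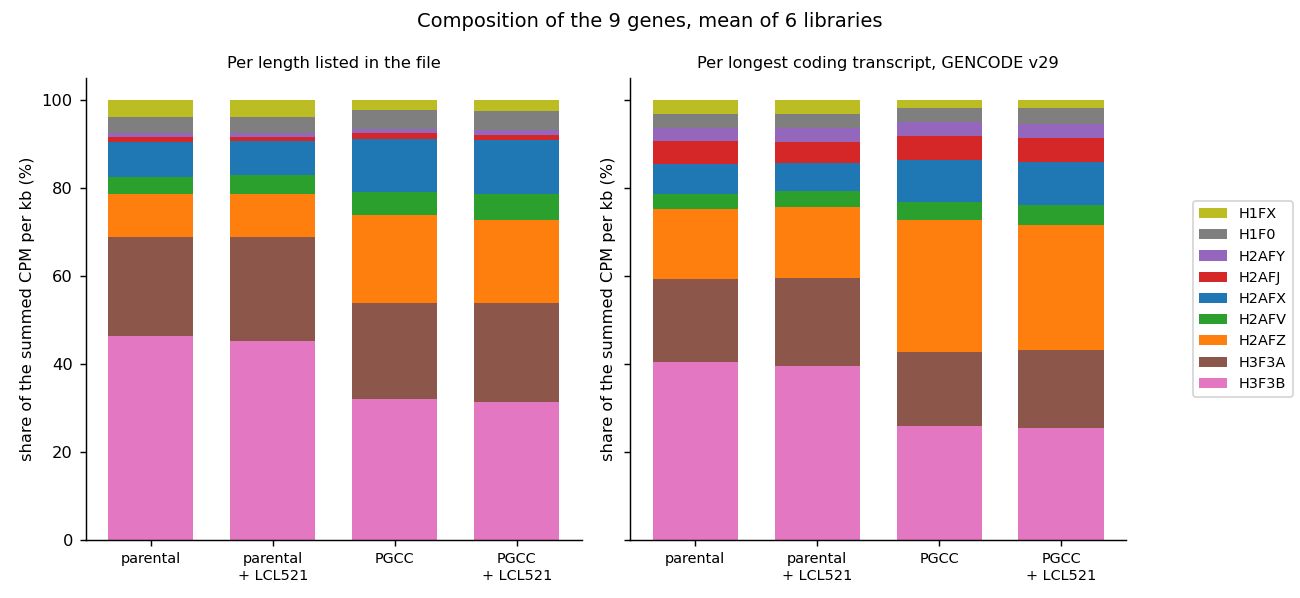
Share of each gene in the summed CPM per kb of the 9 genes (vertical axis, %), as the mean of 6 libraries in each condition, with the gene length listed in the file on the left and the longest coding transcript on the right. H3F3B falls from 46.3% to 32.1% between parental cells and PGCC on the left and from 40.4% to 25.8% on the right.

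LCL521 for 5 h gave no call among the 9 genes. In UT_LCL against UT, 0 of 9 members passed, and edgeR called 0 of 13277 genes (0%), with 71 genes at an unadjusted p under 0.05 and 0 calls by DESeq2 and limma-voom. In PGCC_LCL against PGCC, 0 of 9 members passed and 0.00707% of all genes did, 1 of 14151 (218 at an unadjusted p under 0.05, and 7 calls by DESeq2 and 0 by limma-voom). In both comparisons the ranges of the 6 and 6 libraries overlapped for all 9 members, while they did not for 0.0344% of all genes in parental cells and 0.0824% in PGCC. Without the replicate block no member was at an unadjusted p under 0.05 in either comparison. With the block H2AFX, H2AFJ and H3F3B were under it in parental cells and H2AFZ and H3F3B in PGCC, but no member had an adjusted p under 0.05 there or in any other alternative. The largest difference in parental cells was that of H2AFJ, at -0.19 (95% interval -0.55 to 0.16), or -0.18 ± 0.07 SE with the block (adjusted p = 0.269, edgeR). In the parental populations H2AFX and H3F3B were lower with LCL521 in 6 of 6 experiments, by a mean log2 difference of -0.14 and -0.10, and the fit with the replicate block gave H2AFX -0.13 ± 0.04 SE (adjusted p = 0.189) and H3F3B -0.09 ± 0.04 SE (adjusted p = 0.333), where 0.866% of all genes passed (0.520% higher, 0.346% lower). In PGCC the largest difference was that of H2AFZ, at -0.12 (interval -0.40 to 0.16) and -0.13 ± 0.04 SE with the block (adjusted p = 0.0758), where 1.65% of all genes passed (1.08% higher, 0.572% lower). The interaction of LCL521 with population passed for 0 of 9 members and 0% of 14555 genes (60 at an unadjusted p under 0.05, and 0 calls by DESeq2 and limma-voom), with the largest estimate for H2AFJ at 0.13 (interval -0.25 to 0.52).

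The ratios inside libraries were also compared with and without LCL521. The mean log2 ratio of H3F3B to H3F3A was 1.04 in UT and 0.94 in UT_LCL, lower in 6 of 6 experiments, and the mean log2 ratio of H2AFV to H2AFZ was -1.88 in PGCC and -1.72 in PGCC_LCL, higher in 6 of 6 experiments. Over all divisions of the libraries neither passed (exact permutation p = 0.139 and 0.290). With experiments as pairs both gave p = 0.0312 in the exact test over 64 sign changes, the smallest it allows, and an adjusted p of 0.0469 over the 12 comparisons. That adjusted value lies under 0.05 only because the comparisons between populations among the 12 also stood at the smallest p. These differences, of -0.09 and 0.16, were smaller than those between populations, of -0.47 and -0.59.

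The spread of the 9 genes over the 24 libraries divided into those that followed condition and those that followed the experiment. Condition held 88.4% of the sum of squares of log2 CPM for H3F3B, 77.8% for H2AFZ, 75.2% for H2AFV and 66.6% for H3F3A. The replicate number held 87.9% for H1F0, 78.0% for H2AFY and 57.2% for H2AFJ. H2AFX and H1FX were divided, with 40.9% and 40.4% for condition and 37.5% and 46.5% for replicate number. Averaged over conditions, replicates 4 and 5 lay 0.86 and 0.87 above the mean of H1F0 on the log2 scale and 0.56 and 0.65 above that of H1FX, and replicate 6 lay lowest in both genes, at -0.77 and -0.53. For H2AFX replicates 4 and 5 lay below, at -0.43 and -0.27. These shares are a description, without a test.

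**Figure D5:**
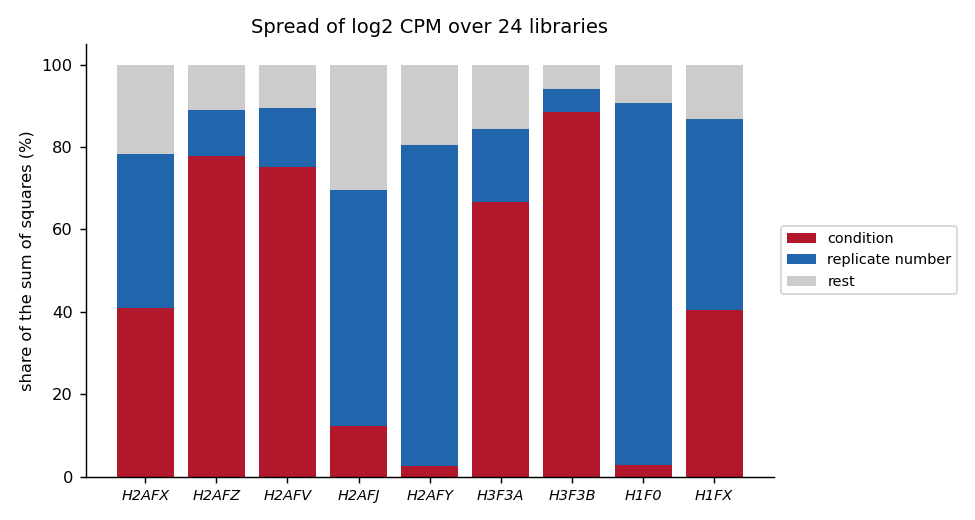
Share of the sum of squares of log2 CPM over 24 libraries (vertical axis, %) that lay between conditions, between replicate numbers and in the rest, for each of the 9 genes. Condition takes 88.4% for H3F3B and replicate number 87.9% for H1F0.

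Of the 8070 genes whose mean log2 CPM was 4 or more, those with the profile closest to a member over the 24 libraries were found for the 3 members with the largest spread. For H2AFZ they were B2M, RIPK2 and MRPL33, with root-mean-square differences of 0.13, 0.14 and 0.17 on the log2 scale after each gene's mean was removed. For H1FX they were a locus with a clone name at 0.17, DHRS3 at 0.20 and SGPL1 at 0.21. For H1F0 they were RP11-59J5.1, NBR1 and LRRC16A, at 0.23, 0.24 and 0.26.

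Genes that load and remove these histones were counted beside them. Their counts are read against the 47.4% of all genes called in PGCC against UT, 23.1% higher and 24.3% lower, and against 56.2% with the replicate block (27.9% higher, 28.3% lower). Of 16 genes for the exchange of H2A.Z, all tested, 1 rose and 7 fell in PGCC, with a median log2 fold change of -0.25 against -0.03 over all genes tested, and with the block 1 rose and 9 fell. The total called was near the share over all genes. BRD8, a bromodomain subunit of the TIP60 complex, rose by 0.90 on the log2 scale, and the lowest were VPS72, the H2A.Z-binding subunit of the SRCAP and TIP60 complexes (-0.73), and YEATS4, a reader subunit of the same complexes (-0.59). Of 7 genes for the deposition of H3.3, 2 rose (UBN1 at 0.31 and CABIN1 at 0.24, both of the HIRA complex) and 1 fell (ASF1A, a chaperone that hands H3.3 to HIRA, at -0.46), with a median of -0.14, and with the block 2 rose and 2 fell. This too was near the share over all genes. With LCL521 in both populations 48.9% of all genes passed, 25.0% higher and 23.9% lower. There 2 rose and 8 fell of the 16, a larger share, and 1 rose and 1 fell of the 7, a smaller share.

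Replication-coupled and general chaperones, 13 of 14 tested, gave 7 rises and 2 falls, with a median of 0.32, and 7 rises and 3 falls with the block. ASF1B, a chaperone of dividing cells, rose by 2.22 on the log2 scale and CHAF1B, a subunit of the chromatin assembly factor CAF-1, by 1.10. SET, a chaperone and phosphatase inhibitor, fell by 0.80 and SSRP1, a subunit of FACT, by 0.36. Of 13 genes that signal to or from phosphorylated H2A.X, 3 rose and 2 fell, a smaller share than over all genes, and 5 rose and 4 fell with the replicate block, a larger share. BRCA1 (1.89) and MDC1, which binds phosphorylated H2A.X (1.04), had the largest rises, and NBN (-0.59) and UIMC1 (-0.31) the largest falls. Of 7 genes that act on the mRNA of replication-dependent histones, 1 rose and 2 fell: ERI1, an exonuclease that trims the stem-loop, was 0.88 higher on the log2 scale, and LSM10 and ZNF473 were at -0.52 and -0.37.

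Other histone genes and proliferation genes were counted as well, and those called were higher in PGCC, while the members went both ways. Of 14 other variant histone genes, 2 could be tested, and CENPA, the centromeric H3 variant, had 4.08 to 18.9 CPM in parental cells and 41.6 to 60.8 CPM in PGCC, a log2 fold change of 2.20 (adjusted p = 5.2e-05, edgeR). H2AFY2, which encodes macroH2A2, did not pass, at -0.25. A set of 70 protein-coding genes was taken by HIST symbols as replication-dependent histone genes. The HIST symbols also take in some of the 14 other variant genes, none of them among the 2 tested there. Of the 70 genes 30 could be tested, and 27 were higher and 0 lower, with a median of 2.34. The low-count filter kept 15 of the 70 in UT_LCL against UT and 32 in PGCC_LCL against PGCC. Some of the 30 thus passed it only through PGCC libraries, where they were high, so this count partly follows from the filter. After poly(A) selection these counts speak for transcripts with a tail, not for those that end at the stem-loop. Of 10 proliferation genes 9 were higher and 0 lower, with a median of 1.79. AURKB (2.72) and CDK1 (2.30), kinases of mitosis, rose most, and the summed level of the 10 lay between 395 and 630 CPM in parental cells and between 1364 and 1565 CPM in PGCC. The part of these genes in the changes of H2AFZ, H2AFV and H2AFX was not tested.

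Markers of other cells were low in level, and PTPRC and PDGFRA were higher in PGCC. Of 5 leukocyte markers, CD3E and CD68 had no count in parental cells or PGCC, and the summed level was 0.46 to 2.97 CPM in parental cells and 2.84 to 4.43 CPM in PGCC, with PTPRC, the only 1 tested, at 1.39 on the log2 scale (adjusted p = 0.0164, edgeR). The sum of the fibroblast and endothelial markers was 0.41 to 1.92 CPM and 3.80 to 4.49 CPM, with PDGFRA the only 1 tested, at 2.10 (adjusted p = 2.7e-04, edgeR). A count of 3 per library, taken as the floor, is 0.15 to 0.21 CPM. Of the epithelial markers KRT8 (1.35) and KRT19 (0.42) were higher and KRT18 (-0.46) lower, and HOXB13 was at -0.80. Their part in the results was not tested.

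Genes on the opposite strand overlap 4 members, and the sources used here do not say if strand entered the counting. H3F3B shares 1294 bases with UNK, which held 366 to 603 counts per library. H2AFZ, H2AFY and H1FX share bases with antisense or protein-coding genes that held at most 22, 13 and 39 counts.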

How the data were processed

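Poly(A) RNA of 24 PPC1 libraries was sequenced by the authors, who deposited raw read counts per gene for 48162 genes. The submitters' processing notes name CASAVA, STAR, HTSeq, DESeq2 and the genome build hg19, and the use of strand in counting is not given in the sources used here. From the deposited counts, genes were kept by filterByExpr (minimum count 10, minimum total 15), scaled by TMM and tested per comparison with edgeR's quasi-likelihood test (R 4.3.3, edgeR 4.0.16, limma 3.58.1, DESeq2 1.42.0), with Benjamini-Hochberg adjustment over all genes tested and a threshold of 0.05. SE values were derived from the F statistic. Levels are CPM, and log2 levels used a prior count of 2. Ratios of 2 genes used counts plus 0.5 per length and an exact permutation test over libraries. The interaction was fitted on all 24 libraries. The scripts were tested on simulated data.

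Per the series' design text, the experiment was repeated 6 times, each with parallel harvests of the 4 conditions. The labels do not say that a replicate number marks 1 repeat, which was checked on the data. Deviations of same-numbered libraries correlated in every pair, with a lowest r of 0.24 in PGCC against UT, 0.17 in PGCC_LCL against UT_LCL, 0.46 in UT_LCL against UT and 0.39 in PGCC_LCL against PGCC. The same-numbered library was the best match for 6 of 6 in both LCL521 comparisons. Between populations it was the best match for 5 of 6 without LCL521 and for only 3 of 6 with it, so the pairing is less sure there. How far these correlations rest on replicates 4 and 5 was not tested. The numbers were taken to pair the samples, and fits with the replicate number as a block were made as an alternative. Other alternatives were DESeq2, limma-voom, other scalings, no filter on low counts, a gene length correction, 1 fit of all libraries, and leaving out each replicate or replicates 4 and 5. Coding transcript lengths and DESeq2 with the block were added after the data were seen. No pair of libraries within a condition agreed within sampling noise.

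The members and the gene lists were chosen with earlier results of these data known. Genes named from a list are the 2 with the largest changes in each direction among those past the threshold, and nearest profiles are given for the 3 members with the largest SD over the 24 libraries. Gene coordinates are those of the deposited table, and promoters and transcripts come from RefSeq (GRCh38.p14) and GENCODE v29 (GRCh38), with no conversion between builds. No column of per-sample values was left out.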

Additional observations from a re-analysis of the deposited data

How the results depend on the processing

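In PGCC against UT and in PGCC_LCL against UT_LCL, H2AFZ, H3F3B and H1FX kept their direction and their call under every alternative run, and the alternatives that end the calls of H2AFX, H2AFV and H3F3A stand beside their results. H2AFJ in PGCC against UT, at -0.01, was 0.0019 with DESeq2, 0.0018 with RLE size factors, 0.022 with limma-voom, 0.086 with library totals alone, 0.017 with the replicate block, 0.013 with the block and a gene length correction, 0.028 with DESeq2 and the block, 0.19 without replicates 4 and 5 and 0.19 with the block added. Leaving out 1 replicate at a time gave -0.085 to 0.12 for H2AFJ and -0.047 to 0.26 for H1F0 in PGCC against UT. H2AFY was 0.032 with library totals in PGCC against UT. In the comparison with LCL521 in both populations, at -0.01, it was 0.0061 with limma-voom, 0.045 with library totals and 0.0055 with the replicate block, and -0.042 to 0.013 when 1 replicate was left out at a time. Library totals alone raised the share of calls that were higher in PGCC from 48.7% to 60.2%, and having no low-count filter raised it to 57.4%, with the median of all genes at 0.25. The cause was not tested.

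Over all 6 experiments the replicate block changed no call of a member, and among the ratios it changed those with LCL521 given beside their results. It moved the calls over all genes in UT_LCL against UT from 0 to 115, to 234 with a gene length correction, to 3 without replicates 4 and 5 and to 159 with DESeq2. In PGCC_LCL against PGCC, with 1 call, DESeq2 gave 7, limma-voom 0, 1 fit of all libraries 0, the block 234, the block with a gene length correction 260, DESeq2 with the block 185, and leaving out replicates 4 and 5 gave 0, or 129 with the block. Leaving out 1 replicate at a time gave 0 to 1. H2AFJ passed with LCL521 in both populations without replicates 4 and 5 under the block (0.25, adjusted p = 0.0357, edgeR).

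Without replicates 4 and 5 the ratio of H3F3B to H3F3A differed by -0.37 between the populations and by -0.36 with LCL521, H2AFV to H2AFZ by -0.74 and -0.66, and H1F0 to H1FX by 1.02 and 0.96. None of these passed at 4 against 4 (exact permutation p = 0.0286, the smallest possible, adjusted p = 0.0571). The ratio of H1F0 to H1FX in UT_LCL against UT, at 0.0014, was then -0.013. With experiments as pairs the LCL521 differences of -0.094 (H3F3B to H3F3A in parental cells) and 0.16 (H2AFV to H2AFZ in PGCC) had an adjusted p of 0.0469 (exact test over sign changes). They passed only because the population comparisons in the same adjustment also stood at the smallest p. Leaving out 1 replicate at a time gave -0.59 to -0.43 for H2AFV to H2AFZ with LCL521 in both populations and -0.021 to 0.040 for H1F0 to H1FX in UT_LCL against UT. The lowest count of a member was 262, so that counting error is small beside the spread between libraries for H1F0 and H1FX.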
